A study of Arabidopsis thaliana with 12 samples.

Results

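A set of 141 probe sets gave high and nearly constant signals through the day in Arabidopsis thaliana seedlings that overexpress CCA1. They were chosen by their expression values among 22746 probe sets (chip controls left out): 10 or more on the log2 scale on all 12 arrays, with at most 0.4 between the highest and the lowest array. In fold terms the limit of 0.4 is 1.32-fold. These limits took 145 probe sets, from which 2 for plastid-encoded genes and those of ACLA-1 and ACLB-1 were left out. The 141 were 0.620% of all probe sets and 5.27% of the 2674 that reached 10 on all arrays. Because level and range chose them, both are given below as a description, with no test.

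All arrays held total RNA from the aerial part of 10-day-old seedlings of the line labelled CCA1-ox, in the Columbia background. CCA1 is a MYB-type regulator at the core of the plant's clock, and the promoter that drove it was not given in the sources used here. Plants grew on agar with MS salts and 1% sucrose in days of 16 h light and 8 h dark, and were harvested at zeitgeber time (ZT, hours from lights on) 0, 6, 12 and 18, with 3 arrays per time. ZT6 and ZT12 lay in the light and ZT18 in the dark, and every group carried the transgene, since wild-type plants were not analysed here. Nothing in the labels says whether the 3 arrays of a time came from separate plantings, so spreads and p-values describe these arrays only.

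The clock and the light cycle set the daily course of many plant transcripts, with peaks spread over the day and the night. Other transcripts serve every cell at all hours, among them those for ribosomes, respiration, RNA handling and protein turnover. Cytosolic ribosomes of Arabidopsis are built from many protein subunits, and most subunits are encoded by several near-identical genes. Steady and abundant transcripts are also used as references in expression studies.

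In the platform annotation 57 of the 141 probe sets matched a single gene, 7 matched several genes, and 77 were not listed and stay unnamed here. Whether unlisted probe sets belong to plastid genes could not be checked. Only 10 of the 141 carried an identifier ending in _s_at or _x_at, the design's mark for probes that may bind several transcripts. Of the 57 named genes, 39 could be given a class of function. The largest class held 13 cytosolic ribosomal proteins, followed by 6 chloroplast proteins, 4 proteins of protein synthesis and secretion outside the ribosome, and 4 of signalling and cell shape. RNA processing and decay had 3, the mitochondrial ribosome, mitochondrial respiration, metabolism and the universal stress protein family had 2 each, and the ubiquitin system had 1.

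Over the 141 probe sets the range across 12 arrays ran from 0.127 to 0.399, with a median of 0.349 (1.27-fold). The same median was 0.875 (1.83-fold) over 2490 equally abundant probe sets outside the rule. The 4 time means of a steady probe set spanned 0.306 at most (1.24-fold) and 0.172 at the median, against a median of 0.583 for the others. The SD between arrays of the same time was 0.0350 to 0.149, with a median of 0.0859, against a median of 0.142 for the others. The limit on range also bounds this scatter, so the lower SDs of the steady set follow in part from the rule, and the SDs of both sets overlapped. Of the 2490 others, 1386 (55.7%) had a scatter no larger than the highest in the steady set, and among these the time means of 170 spanned at least 2-fold.

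**Figure D1:**
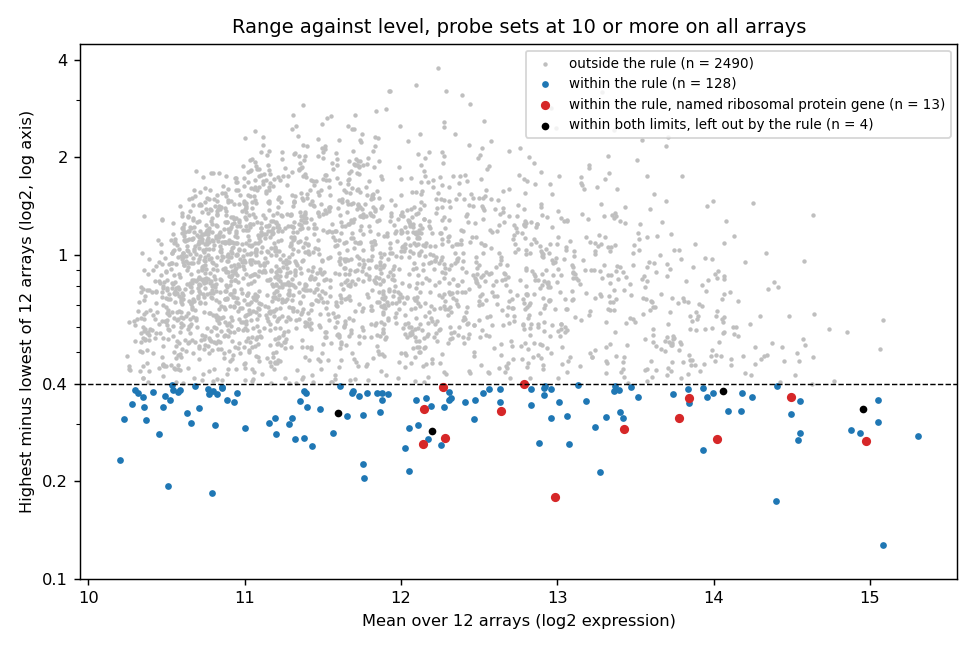
Range over the 12 arrays (highest minus lowest, log2, log axis) against mean log2 expression for probe sets at 10 or more on all arrays. Each point is 1 probe set and the dashed line is the limit of 0.4. Steady probe sets (blue, and red for the 13 ribosomal protein genes) lie along the lower edge of a cloud whose ranges reach 3.77.

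Steady probe sets were spread over the whole scale of levels, and made up a larger share of the brightest ones. Of 704 abundant probe sets with a mean of 10 to 11, 33 (4.69%) were steady, and of 989 between 11 and 12, 29 (2.93%) were. The share was 5.80% between 12 and 13 (35 of 603) and 8.56% between 13 and 14 (25 of 292). At 14 and above it was 22.1% (19 of 86), and the median range of all 86 was 0.520. The brightest probe set of each array read 15.17 to 15.42, so the 86 lay close to the top of the scale, and the part of this upper end in their small ranges was not tested. Among dimmer probe sets the same limit of 0.4 was met by 1.48% to 2.75% in bins of lowest value from 4 to 10.

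The smallest ranges belonged to probe sets with no gene listed. The steadiest averaged 15.08 with a range of 0.127, and the next averaged 14.40 with a range of 0.174. Among named genes the smallest range was 0.179, or 1.13-fold.

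Highest and lowest time means of the 141 were spread over all 4 times, as were those of the 2490 other abundant probe sets. ZT0 held the highest time mean of 42, ZT6 of 35, ZT12 of 36 and ZT18 of 28. ZT0 held the lowest of 39, ZT6 of 25, ZT12 of 31 and ZT18 of 46. By array, the mean deviation of the 141 from their own means lay between -0.049 (ZT18 replicate 2) and 0.029 (ZT18 replicate 1), so both extremes were arrays of the same time. Replicate 1 had a higher mean deviation than replicate 2 at all 4 times, and the same held for the other abundant probe sets. The spread of single deviations was 0.081 to 0.115 (SD over the 141) on every array, against 0.283 to 0.458 for the other abundant probe sets.

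**Figure D2:**
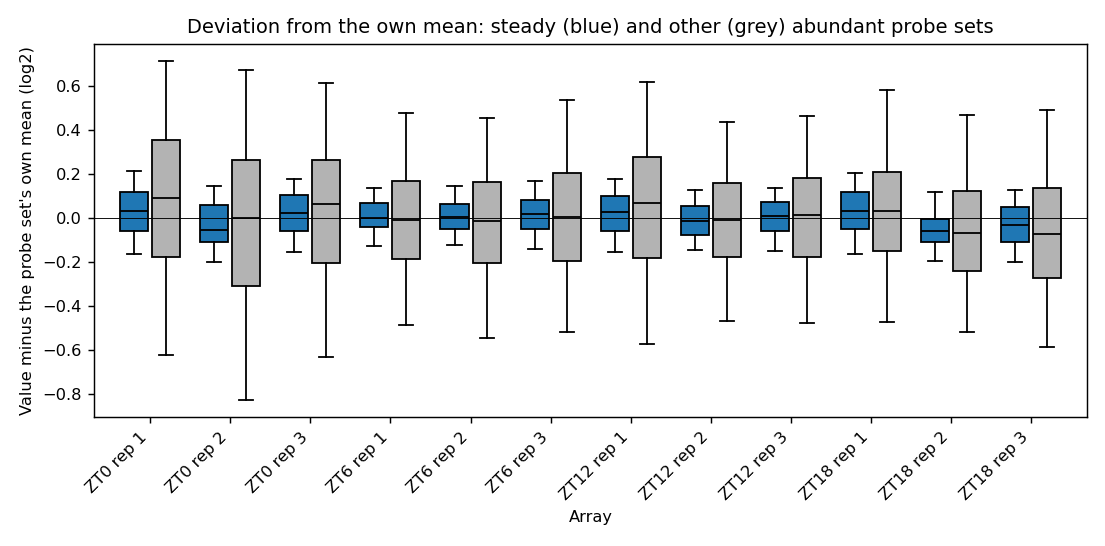
Deviation of each probe set from its own mean over 12 arrays (log2), by array, for 141 steady (blue) and 2490 other abundant probe sets (grey). Boxes span the quartiles, the line is the median and whiskers reach the 5th and 95th percentiles. The blue boxes are narrow on every array and their medians move up and down between replicates of 1 time.

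Cytosolic ribosomal proteins were the largest named group. Of 131 of their genes with a probe set of their own, 89 were abundant on all arrays and 13 of these (14.6%) were steady, against 44 of the 1134 other named abundant probe sets (3.88%). The number of steady ribosomal protein genes was 5 after median centring, 20 after quantile normalization and 21 without ZT0 replicate 1. This list of genes was drawn up after the steady set was known, so the counts only describe it. The shares were not matched for level, and steady probe sets were more frequent among the brightest ones (22.1% at 14 and above, 2.93% between 11 and 12). The part of level in the higher share was not tested. The 13 genes encode 13 different subunits, 10 of the large subunit or its stalk and 3 of the small one. Their mean levels ran from 12.14 to 14.97 and their ranges from 0.179 to 0.399.

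AT1G08360, for the large-subunit protein L10a, had the smallest range of all named genes. It read 12.998, 12.917 and 12.989 at ZT0, 12.992, 12.909 and 13.088 at ZT6, 13.042, 12.996 and 12.943 at ZT12, and 13.018, 12.977 and 12.973 at ZT18. Its highest and lowest arrays were both at ZT6, all groups overlapped, and the time means spanned 0.028.

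AT3G52580, for the small-subunit protein S14, read 12.41, 12.29 and 12.34 at ZT0, 12.16, 12.28 and 12.33 at ZT6, 12.27, 12.22 and 12.14 at ZT12, and 12.35, 12.34 and 12.23 at ZT18. All ZT0 arrays lay above all ZT12 arrays, and every other pair of groups overlapped. AT5G52650, for S10, read 12.34, 12.08 and 12.27 at ZT0, 12.08, 12.08 and 12.12 at ZT6, 12.14, 12.08 and 12.12 at ZT12, and 12.19, 12.13 and 12.08 at ZT18. Replicates 1 and 3 of ZT0 were its highest arrays, while replicate 2 was level with the lowest arrays of the other times.

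AT3G05560, for L22, read 14.06, 14.12 and 13.90 at ZT0, 14.04, 14.09 and 13.98 at ZT6, 14.04, 14.08 and 14.12 at ZT12, and 14.03, 13.95 and 13.85 at ZT18. All ZT12 arrays lay above all ZT18 arrays, narrowly so, and every other pair of groups overlapped. AT1G52300, for L37, was the brightest named gene, with 15.09, 14.99 and 15.08 at ZT0, 14.83, 14.91 and 14.91 at ZT6, 14.96 to 15.01 at ZT12, and 15.04, 14.91 and 14.95 at ZT18. Its ZT6 arrays lay below all others, very narrowly so against ZT18 (highest 14.9092 at ZT6, lowest 14.9105 at ZT18). The ZT6 mean was 0.17 lower than at ZT0 (SE 0.06).

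The other 8 ribosomal proteins spanned 0.290 to 0.399. AT1G01100, for the acidic stalk protein P1, had all ZT0 arrays (13.51 to 13.52) above those of ZT6 and ZT18. AT5G02870, for L4, had all ZT12 arrays above all others, with a mean of 12.93 ± 0.07 (SD, n = 3) at ZT12 and 12.71 ± 0.12 at ZT0. AT1G18540, for L6, and AT4G27090, for L14, had their ZT0 arrays above those of ZT12 and ZT18. AT5G47930, for the small-subunit protein S27, had overlapping groups throughout, with a range of 0.335. L17, L19 and L31 are described with the genes that passed the test over times.

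Other genes for the same subunits were less even. In 10 of the 13 subunits, 14 further genes had an abundant probe set of their own, with ranges of 0.449 to 1.40 (median 0.622), and being outside the rule these exceed 0.4 by definition. For L10a, PGY1 spanned 0.509, while AT5G22440 spanned 1.40 with a mean of 11.36 ± 0.20 at ZT12 and of 10.27 ± 0.09 at ZT18 (SD, n = 3). For S14, AT2G36160 spanned 0.949 and AT3G11510 spanned 0.515, beside 0.271 for AT3G52580. For L4, AT3G09630 spanned 0.973 and fell from 11.97 ± 0.15 at ZT0 to 11.33 ± 0.15 at ZT18, and it passed the F-test described below. For L37, AT3G16080 spanned 0.633 beside 0.266 for AT1G52300, and the dimmer AT1G15250 spanned 1.91. For L22, AT5G27770 spanned 0.449 beside 0.270 for AT3G05560. The closest pair was in L31, with 0.364 for AT5G56710 and 0.489 for AT4G26230. Copies of a subunit are near-identical in sequence, so a probe set can carry signal from more than its own gene, and how far this holds here is uncertain. Levels of copies are not strictly comparable, because each probe set has its own response. By mean value the steady copy read brighter than the abundant further copies of its subunit, as for L19 (13.84 against 10.60 for AT3G16780). The exception was PGY1 (13.78), above AT1G08360 (12.99). Steady probe sets were more frequent among the brightest ones, and the part of level in the contrast between copies was not tested.

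**Figure D3:**
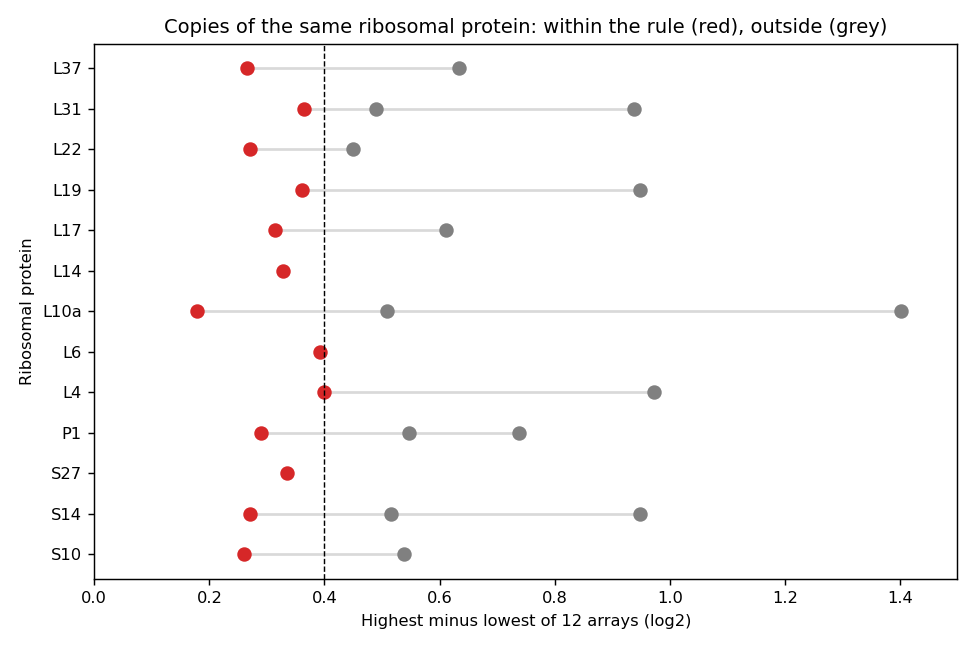
Range over 12 arrays (log2) of genes encoding the same ribosomal protein, 1 line per subunit, with abundant genes only. Red points lie within the limit of 0.4 (dashed) and grey points outside it. L10a shows the widest pair, from 0.179 to 1.40, and L31 holds the closest pair, at 0.364 and 0.489.

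The 76 abundant ribosomal protein genes outside the rule had a common course that the 13 did not show to the same extent. Their highest time mean fell at ZT0 in 54, at ZT12 in 20, at ZT6 in 2 and at ZT18 in 0, and their lowest at ZT18 in 46 and at ZT6 in 26. Averaged over the 76, deviations from their own means were 0.219 for ZT0, -0.096 for ZT6, 0.054 for ZT12 and -0.177 for ZT18. Over the 13 the same averages were 0.044, -0.022, -0.00009 and -0.022, and 8 of the 13 were highest at ZT0. The small deviations of the 13 follow from the rule. Their common order of times was not the same under quantile normalization, where 5 of the 13 were highest at ZT0 and 6 at ZT18. Of the 76, 60 were highest at ZT0 after median centring and 55 after quantile normalization.

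Signal from the 3' end over the 5' end of actin, GAPDH and ubiquitin control probe sets, a sign of RNA or labelling quality, read 4.40 ± 0.27 (SD, n = 3, log2) at ZT18, with every array there above those of ZT0 (3.78 ± 0.09), ZT6 (3.81 ± 0.14) and ZT12 (3.70 ± 0.21). With this difference as a covariate, 45 of the 76 passed the F-test over times, against 63 without it, while the share called over all tested probe sets went from 70.1 percent to 60.9 percent, and that over the 2490 other abundant ones from 78.9 percent to 69.7 percent. High 3' over 5' signal and ZT18 go together on these arrays, so this fit cannot tell their parts apart. The part of the signal in the low ZT18 values was not tested.

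**Figure D4:**
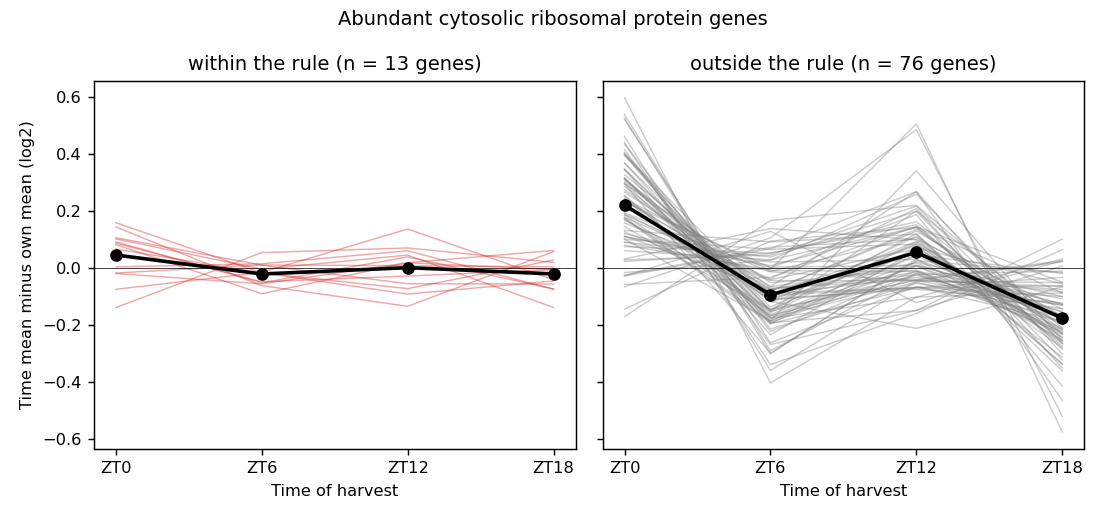
Time means minus the gene's own mean (log2) at the 4 times for abundant cytosolic ribosomal protein genes, 13 within the rule (left) and 76 outside it (right). Thin lines are genes and the thick line is their average, which runs from 0.219 at ZT0 to -0.177 at ZT18 on the right and stays between -0.022 and 0.044 on the left.

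Among the 39 named members given a class, 4 were in the mitochondrial classes. AT4G02580, for the 24 kDa type subunit of respiratory complex I, read 12.30, 12.17 and 12.42 at ZT0, 12.35, 12.22 and 12.30 at ZT6, 12.19, 12.24 and 12.26 at ZT12, and 12.25, 12.20 and 12.16 at ZT18. The groups overlapped throughout, and the range was 0.258. AT3G52730, for a small subunit of complex III, read 13.32, 13.16 and 13.34 at ZT0, 13.34, 13.19 and 13.21 at ZT6, 13.33, 13.26 and 13.27 at ZT12, and 13.28, 13.05 and 13.14 at ZT18. Its lowest arrays were at ZT18 and again all groups overlapped. Of 19 abundant genes listed for respiration and ATP synthase, also a list made after the set was known, these 2 were steady, and the other 17 spanned 0.433 to 0.968.

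Both remaining members of the mitochondrial classes encode proteins of the mitochondrial ribosome. AT3G06040, of the L7/L12 family, read 11.34, 11.14 and 11.34 at ZT0, 11.15, 11.20 and 11.16 at ZT6, 11.25, 11.27 and 11.23 at ZT12, and 11.09, 11.18 and 11.06 at ZT18. Its ZT12 arrays lay above all those of ZT6 and ZT18, while ZT0 held both high and low arrays. AT5G64670, of the L15 family, was the named gene closest to the lower limit of level, with a lowest array of 10.09 and a range of 0.382.

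The 6 steady genes for chloroplast proteins spanned 0.314 to 0.374. CHLM, the methyltransferase of chlorophyll synthesis, read 13.37, 13.22 and 13.19 at ZT0, 13.39, 13.39 and 13.47 at ZT6, 13.25, 13.31 and 13.38 at ZT12, and 13.38, 13.26 and 13.15 at ZT18. Its ZT6 arrays were the 3 highest, by a margin under the spread of the other times. Of 6 abundant genes listed for chlorophyll synthesis CHLM alone was steady. This list was also made after the set was known, so the count only describes it. CHLI2, for a subunit of magnesium chelatase, spanned 1.33, from 11.32 ± 0.04 at ZT0 to 12.46 ± 0.09 at ZT6, and PORB, a protochlorophyllide reductase, spanned 1.24.

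AT1G24360, for a reductase of plastid fatty acid synthesis, read 13.11, 13.09 and 13.05 at ZT0, 12.87, 13.01 and 13.05 at ZT6, 12.89, 12.90 and 12.89 at ZT12, and 12.80, 12.90 and 12.99 at ZT18. Its ZT0 arrays lay above all ZT12 and ZT18 arrays. AT2G26500, for the PetM subunit of the cytochrome b6f complex, averaged 14.24 with a range of 0.363 and overlapping groups. AT5G53490, a pentapeptide-repeat protein of the thylakoid lumen, averaged 11.69, and its ZT18 arrays lay above its ZT0 arrays. AT2G21385, an assembly factor of the chloroplast ATP synthase, and AT2G24020, known as STIC2, had overlapping groups with ranges of 0.351 and 0.354.

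Genes for handling RNA gave 3 members. LSM6A encodes a subunit of the LSm ring, which binds RNA in splicing and decay. It read 11.14, 11.02 and 11.03 at ZT0, 10.91, 11.01 and 11.05 at ZT6, 11.11, 11.04 and 11.13 at ZT12, and 10.91, 10.86 and 10.85 at ZT18. All ZT18 arrays lay below the others, narrowly so against ZT6, while the range was 0.293. Its paralog LSM6B, too dim for the rule, spanned 1.59 and averaged 9.16 ± 0.30 at ZT0 and 8.02 ± 0.30 at ZT18. LSM3B, of the same ring and abundant, spanned 1.37. AT1G80780, a deadenylase of the CAF1 family that shortens poly(A) tails, had its ZT6 arrays (11.99 to 12.14) above all others. AT5G12190, an RNA-binding protein of the SF3b14 type, averaged 10.86 with a range of 0.387, and its lowest array was ZT6 replicate 3 at 10.60.

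Protein synthesis and secretion outside the ribosome gave 4 members. AT5G27470, a seryl-tRNA synthetase, read 11.41, 11.27 and 11.37 at ZT0, 11.28, 11.31 and 11.12 at ZT6, 11.28, 11.19 and 11.18 at ZT12, and 11.43, 11.39 and 11.43 at ZT18. Its ZT18 arrays lay above all ZT6 and ZT12 arrays. Of 5 abundant aminoacyl-tRNA synthetase genes, again a list made after the set was known, it alone was steady. The steadiest of the other 4, AT4G33760, spanned 0.416. AT3G58140, the most variable, averaged 10.71 ± 0.14 at ZT0 and 11.71 ± 0.23 at ZT6. AT1G48900, for SRP54 of the signal recognition particle, read 11.95, 12.00 and 12.13 at ZT0, 12.11, 12.20 and 12.20 at ZT6, 12.00, 12.14 and 11.93 at ZT12, and 12.22, 12.23 and 12.20 at ZT18. Its ZT18 arrays lay above all ZT0 and ZT12 arrays. AT4G12590, a subunit of the ER membrane protein complex, had overlapping groups with a range of 0.374, and AT4G39150, a DnaJ co-chaperone, had its ZT0 arrays below those of ZT6 and ZT12.

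In metabolism, AT3G12290, for a methylenetetrahydrofolate dehydrogenase of the folate cycle, had the smallest range after L10a among named genes (0.215). It read 11.95, 12.01 and 12.16 at ZT0, 12.12, 12.08 and 12.10 at ZT6, 12.04, 11.96 and 12.09 at ZT12, and 12.12, 11.97 and 11.99 at ZT18. Its highest and lowest arrays were both at ZT0. UBP15, a ubiquitin-specific protease, read 10.27, 10.13 and 10.15 at ZT0, 10.36, 10.18 and 10.26 at ZT6, 10.20, 10.20 and 10.16 at ZT12, and 10.13, 10.22 and 10.19 at ZT18. Its groups overlapped and its range was 0.233. CP5, a member of the START-domain family of lipid-binding proteins, read 14.68, 14.59 and 14.57 at ZT0, 14.59, 14.53 and 14.57 at ZT6, 14.49, 14.48 and 14.39 at ZT12, and 14.57, 14.56 and 14.59 at ZT18. All ZT12 arrays lay below all others, and the ZT12 mean was 0.16 under that of ZT0 (SE 0.06).

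**Figure D5:**
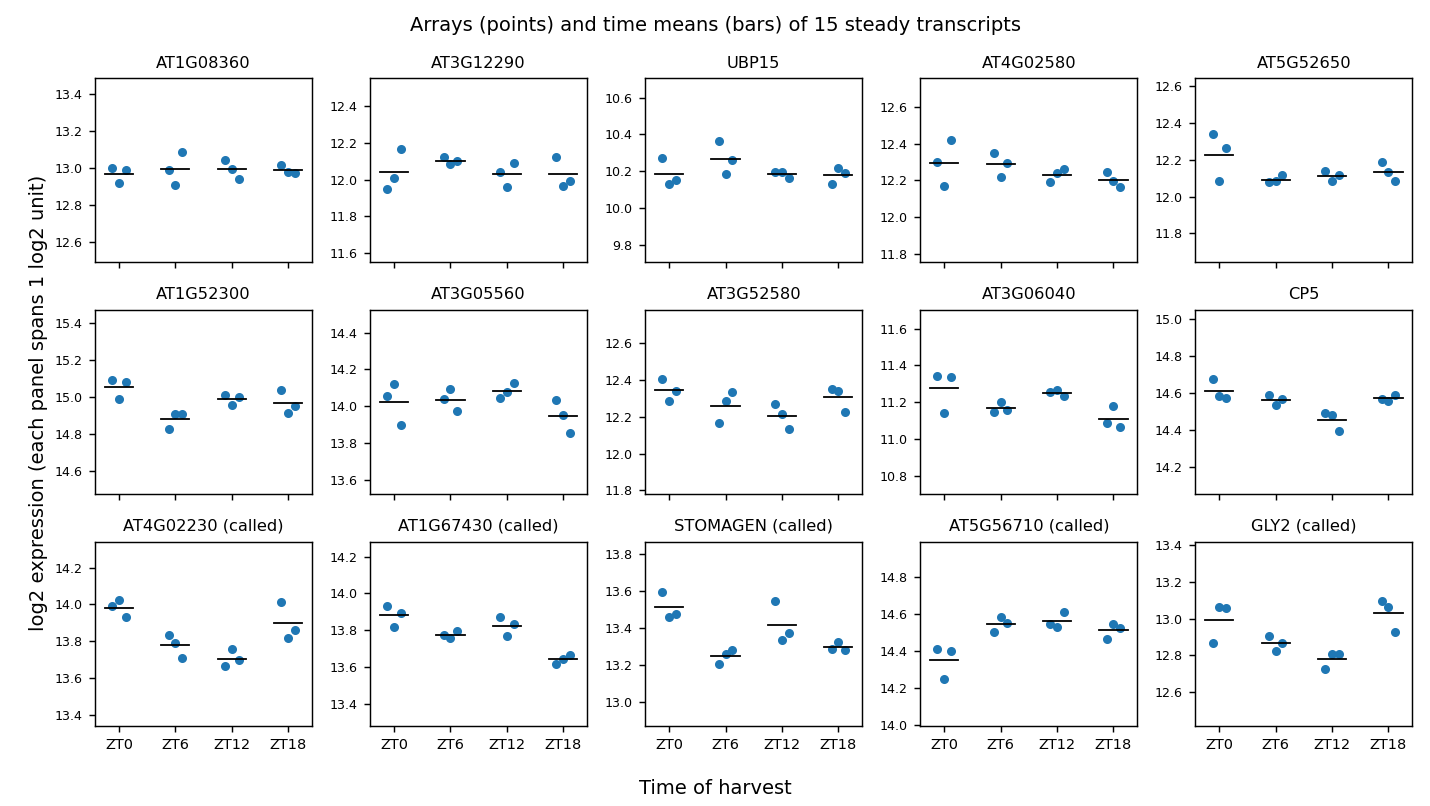
Log2 expression on each array (points, in replicate order) and time means (bars) of the 10 named genes with the smallest ranges and the 5 with the smallest F-test p (called). Every panel spans 1 log2 unit, so that all 15 genes stay within less than 0.4 of it.

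Signalling and cell shape gave 4 members. AT1G54320, of the LEM3/CDC50 family of membrane proteins, read 11.68, 11.80 and 11.88 at ZT0, 11.71, 11.76 and 11.69 at ZT6, 11.58, 11.66 and 11.68 at ZT12, and 11.83, 11.90 and 11.90 at ZT18. Its ZT18 arrays lay above all ZT6 and ZT12 arrays. SP1L3, of a family that acts on microtubules, had overlapping groups and a range of 0.361. The gene listed as iqd21, for a calmodulin-binding IQ-domain protein, lay near the lower limit of level, and its ZT0 arrays were below those of ZT6 and ZT12. The universal stress protein family had AT3G62550, with a mean of 14.40 and its ZT0 arrays below those of ZT6 and ZT18. It also had AT2G47710, with a mean of 12.92. Its ZT18 arrays and ZT12 arrays were hardly apart, with a highest of 12.9415 at ZT18 and a lowest of 12.9417 at ZT12.

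A moderated F-test over the 4 times, adjusted over all 14016 probe sets tested (limma, Benjamini-Hochberg, threshold 0.05), called 16 of the 141 (11.3%), all 141 having passed the filter on low values. The background was 70.1 percent of all tested probe sets called, and 78.9 percent of the 2490 other abundant ones. Since the rule used these same values, nothing is read from the members' count. The time means of the 16 spanned 0.209 to 0.306, so the test picked up differences of at most 1.24-fold where arrays of 1 time lay close together. Of the 16, 5 had 1 gene listed.

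AT4G02230, for the ribosomal protein L19, read 13.99, 14.02 and 13.93 at ZT0, 13.83, 13.79 and 13.71 at ZT6, 13.66, 13.76 and 13.70 at ZT12, and 14.01, 13.82 and 13.86 at ZT18. All ZT0 arrays lay above all ZT6 and ZT12 arrays, and the ZT12 mean was lower than that of ZT0 by a log2 difference of -0.28 (SE 0.07). AT1G67430, for L17, read 13.93, 13.82 and 13.90 at ZT0, 13.77, 13.76 and 13.80 at ZT6, 13.87, 13.77 and 13.83 at ZT12, and 13.62, 13.64 and 13.66 at ZT18. All ZT18 arrays lay below all others, with a ZT0 mean 0.24 higher (SE 0.06).

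AT5G56710, for L31, had the opposite order to L19 at ZT0. It read 14.41, 14.25 and 14.40 at ZT0, 14.50, 14.58 and 14.55 at ZT6, 14.54, 14.53 and 14.61 at ZT12, and 14.47, 14.54 and 14.52 at ZT18. All ZT0 arrays lay below all others, by 0.21 against ZT12 (SE 0.07).

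STOMAGEN, a secreted peptide that promotes the formation of stomata, read 13.60, 13.46 and 13.48 at ZT0, 13.20, 13.26 and 13.28 at ZT6, 13.55, 13.33 and 13.37 at ZT12, and 13.29, 13.32 and 13.28 at ZT18. All ZT0 and ZT12 arrays lay above all ZT6 and ZT18 arrays, narrowly so for ZT12 against ZT18. The ZT6 mean was lower than that of ZT0 by a log2 difference of -0.26 (SE 0.07). GLY2, a glyoxalase II, which completes the removal of methylglyoxal, read 12.87, 13.06 and 13.06 at ZT0, 12.91, 12.83 and 12.87 at ZT6, 12.72, 12.81 and 12.81 at ZT12, and 13.09, 13.06 and 12.93 at ZT18. Its ZT12 arrays lay below all others, and the ZT18 mean was 0.25 above that of ZT12 (SE 0.08).

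None of the 18 named genes without a class passed the test over times. Of all 57 named members 5 passed, against 70.1 percent of all tested probe sets. Since the rule used these same values, nothing is read from this count. The 18 spanned 0.282 to 0.397. They are CP5 with AT3G08650, AT3G24100, AT4G32240, AT1G16810, AT2G04410, AT1G65220, AT5G03880, AT4G15545, AT3G07230, AT5G20060, AT5G08060, AT2G01220, AT5G43830, AT2G40765, AT1G01800, AT4G25170 and AT1G68220. Among them AT3G07230 was among the brighter (mean 13.85) and AT3G08650 among the dimmer (mean 10.37). AT2G01220 is the only member gene with another probe set of its own. That probe set averaged 6.43 and spanned 1.04, against 10.83 and 0.372 for the steady one, with a lowest array of 5.76 at ZT18 replicate 1.

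No listed reference gene with a probe set of its own was in the steady set. Of 33 listed reference genes, 13 had a probe set of their own and 3 of these were abundant. The steady share over all abundant probe sets was 5.27%. With 3 probe sets, 0 lies near this share, so nothing is read from it about reference genes. AT5G46630, for a clathrin adaptor subunit, spanned 0.600, with its time means between 11.45 ± 0.27 at ZT18 and 11.70 ± 0.10 at ZT0 (SD, n = 3). TUB6, a tubulin, spanned 1.28, and GAPC2, a glyceraldehyde-3-phosphate dehydrogenase, spanned 1.52. AT4G34270, just too dim for the rule, spanned 0.799, and PEX4 (AT5G25760), a ubiquitin-conjugating enzyme, spanned 2.17 with 10.57 ± 0.25 at ZT0 and 9.37 ± 0.69 at ZT18. All 3 abundant genes had their lowest mean at ZT18, where the 3' over 5' signal was highest, and its part was not tested.

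No listed core clock gene with a probe set of its own was in the set, and unnamed members could not be checked. Only 2 of 18 listed core clock genes had a probe set of their own and neither reached 10 on all arrays. A further 17 families found by gene name held 156 probe sets, of which 47 were abundant and 0 were steady. The steady share was 5.27% over all abundant probe sets and 3.88% over named ones outside the ribosomal proteins. With 47 probe sets, 0 lies near these shares, so nothing is read from it about the families. These families hold only genes whose symbol in the annotation matched, so they miss genes listed by locus alone, such as the steady PetM gene AT2G26500. Of 9 listed markers of green tissue, 2 had a probe set of their own, and both were abundant. RCA, the activase of Rubisco, had time means of 13.71 to 14.29. Of 8 listed root markers, 2 had a probe set of their own and 1 was abundant. The root-expressed PYK10 lay at 12.74 to 13.33 although the samples were labelled as the aerial part, and the reason was not tested.

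The limits cut through a continuum. Just inside the limit on range lay AT5G02870 (0.399), AT1G68220 (0.397), AT4G25170 and STOMAGEN (both 0.394) and AT3G62550 (0.394). Just outside lay CCL (0.401), AT1G63290 (0.402), MAB1 and AT5G14030 (both 0.404) and AT1G28150 (0.405). CCL spanned 0.093 between its time means with an SD of 0.140 between arrays of the same time, whereas AT1G63290 spanned 0.316 with an SD of 0.043. Near the limit on level, AT5G64670, iqd21, UBP15, AT3G08650 and AT2G40765 had lowest arrays of 10.09, 10.10, 10.13, 10.19 and 10.29. Just under it, AT4G30310, AT1G47330, the glutamyl-tRNA synthetase gene AT5G26710, CKS and AT5G44450 had lowest arrays of 9.997, 9.985, 9.961, 9.958 and 9.862.

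Steadiness holds relative to the scale the arrays share. Array medians over all probe sets spanned 0.168, a sizeable part of the limit of 0.4. With each array centred on its median, 78 of the 141 stayed within the limits, and with quantile normalization 110 did. Of the 57 named genes, 23 stayed under both, among them AT1G08360, AT3G12290, UBP15, AT4G02580, AT3G05560, AT3G52580, AT3G06040, CHLM and CP5. Of the 13 ribosomal proteins, 5 stayed after centring and 12 after quantile normalization.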

How the data were processed

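The deposited values are log2 expression values per probe set, 1 per array, made by the authors. The submitters' processing notes list R 3.1, affy 1.42.3 and GCRMA, without settings. How arrays were scaled to each other is not given in the sources used here, and it bears directly on which probe sets look steady. No columns were pooled. Groups came from the sample titles; the label for the time of harvest differed from title, source name and description on 9 of 12 arrays and served only as an alternative. The 64 chip controls among 22810 probe sets were not used, except for the 3' over 5' signal. Of the 2674 abundant probe sets, 41 for plastid-encoded genes and 2 for ACLA-1 and ACLB-1 were left out of both sets compared.

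The rule was applied in Python 3.11.15 (pandas 2.3.3, numpy 2.4.6). Times were compared with limma 3.58.1 in R 4.3.3 (lmFit, eBayes with a mean-variance trend, moderated F-test) on the 14016 probe sets at 4 or more on at least 3 arrays, adjusted by Benjamini-Hochberg. SEs are those of this fit. The code was tested on simulated data. The number of arrays limits the precision.

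The members, the lists and the tests were chosen with earlier results of these data known. Named genes were, among probe sets with 1 gene, the 10 smallest ranges, the 5 smallest F-test p, the 5 nearest to each limit on either side, up to 4 members and 2 other genes per listed family, and members with another probe set. The 5 lists of cytosolic ribosomal proteins, respiration, aminoacyl-tRNA synthetases, Sm and LSm proteins and chlorophyll synthesis, with their genes, and all other genes named, were chosen after the values were seen. Names come from the platform annotation and may be old. Genome coordinates, sequences and the level of CCA1, for which no probe set is named, are not analysed here.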

Additional observations from a re-analysis of the deposited data

How the results depend on the processing

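The number of steady probe sets followed the limit on range. From 141 it became 37 at a limit of 0.3 and 357 at 0.5, and 819 where the range of the 4 time means replaced the range of 12 arrays, a looser measure by construction. It was 97 after median centring, 186 after quantile normalization, 179 and 106 at levels of 9 and 11, and 131 without _s_at and _x_at probe sets. Leaving out 1 array gave 146 to 205; with fewer arrays a range can only shrink, so the count could not fall and no member could be lost. Without ZT0 replicate 1 the ribosomal proteins among them rose from 13 to 21. The F-test over times called 16 of the 141 in limma. It called 26 with no filter and 4 with no variance trend; the cause was not tested. It called 15 after centring, 21 after quantile normalization, 13 with a filter at 10, 14 with a robust trend, and 12 with the 3' over 5' signal as a covariate, 9 of them among the 16. Leaving out 1 array gave 9 to 18, with 9 without ZT6 replicate 1 or without ZT6 replicate 2 and 10 without ZT12 replicate 1 or ZT18 replicate 2. With times from the harvest label it called 0 of the 141 and 0 of all 14016 (limma), with 0 and 34 at an unadjusted p under 0.05. Arrays of different times correlated in their deviations at a median of 0.090 for the same replicate number (9 of 18 over 0.1, from -0.153 to 0.403) and -0.083 for other numbers (6 of 36 over 0.1). Of 12 arrays, 11 correlated best with 1 of their own number, a hint from the data and not from the design; nothing in the labels says what a number marks, and not every pair correlated, so the numbers were not taken to pair arrays. With the replicate block the test called 20 of the 141. The median range of the 141, 0.349, was 0.394 after centring, 0.345 after quantile normalization and 0.327 to 0.340 without 1 array. Of the 57 named genes, the range moved by over 1 SD between replicates in 22 after centring and in 14 after quantile normalization.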
